A study of Mus musculus with 4 samples.

Results

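The mitochondrially encoded genes are the 37 genes of the mouse mitochondrial chromosome. They were taken as all genes whose symbol begins with mt-, which selected 37 of the 46078 genes in the count tables. They comprise 13 mRNA genes, 2 rRNA genes and 22 tRNA genes, and all of them had a row in both tables. The choice used position on the chromosome and no measured value.

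The mitochondrial genome is a small circular DNA that is transcribed on both strands as long precursors. The tRNAs are cut out of these precursors and so free the mRNAs and rRNAs, which receive short poly(A) tails and are then kept or degraded at different rates. Its mRNAs encode subunits of respiratory complexes I, III and IV and of the ATP synthase, and every protein needed to copy, transcribe and process it comes from the nucleus. In single-cell data a high share of mitochondrial counts is widely used as a sign of a damaged cell.

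Wild-type mouse embryonic stem (ES) cells were grown in 2i, a medium with MEK and GSK3 inhibitors that keeps them naive. A gate on forward and side scatter took the small cells, meant to hold those leaving mitosis and in G1, and ungated cells served as the control. Both kinds of cell then spent 6 h on laminin, either still in 2i or in the differentiation medium N2B27, before single cells were sequenced by Smart-seq2. Small and ungated cells of each medium make 4 groups, each 1 sample of 24 cells of the wild-type line E14, and LIF was part of 2i. There are no replicates, so no p-value is given, and cells of a sample are not replicates of its condition. The media were kept on different plates and sequencing lanes, so the effect of a medium and that of its plate or lane cannot be told apart. The gates share a plate, in different index rows.

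Cells were kept by lower limits on gene counts and on genes detected, set per plate, whereas the mitochondrial share was not used to choose them. An upper limit on that share, 3 median absolute deviations above the plate median (5.16% in 2i and 4.67% in N2B27), serves only to describe cells apart. This kept 79 of 96 cells: 13 small and 23 ungated cells in 2i, and 22 small and 21 ungated cells in N2B27. The kept cells held 554228 to 4844170 counts on genes, of which 19227 to 219929 were mitochondrial. Markers of ES cells (Pou5f1, Nanog, Zfp42 and 4 others) were present in all 4 groups. Markers of feeder fibroblasts summed to at most 0.378 CPM (counts per 1000000 counts on nuclear genes) in any kept cell. Of 4 primitive endoderm and 4 trophoblast markers, the sum had a median of 0 in every group, with single cells reaching 146 and 437 CPM.

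Sequences are shown first because they bear on which genes could be counted at all. Several mRNA genes have unprocessed pseudogenes in the nuclear genome that repeat long stretches of them. A run of 7 such copies, whole or partial, lies on chromosome 1 of GRCm38, on the minus strand, at chr1:24611535-24616197. The copies Gm28661 of mt-Co2, Gm10925 of mt-Atp6, Gm28437 of mt-Co3 and Gm10222 of mt-Nd4l matched their gene at all of the 681, 678, 783 and 294 bases compared. mt-Co3, which encodes a core subunit of complex IV, extends past its copy by a single base, the T in capitals at the end of the first of the following lines. All sequences are from the GENCODE M21 transcripts and read 5′ to 3′.
mt-Co3 (last 60 bases, chrM:9331-9390, plus strand): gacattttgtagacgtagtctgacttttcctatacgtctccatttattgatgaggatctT
Gm28437 (last 59 bases, chr1:24613189-24613247, minus strand): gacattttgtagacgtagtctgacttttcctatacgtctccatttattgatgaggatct

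The copy of mt-Nd3, a complex I gene, differed from it at 1 of 345 bases. The difference is T3C, with the mitochondrial base first and positions counted from the start of the gene, and it is in capitals below.
mt-Nd3 (first 60 bases, chrM:9459-9518, plus strand): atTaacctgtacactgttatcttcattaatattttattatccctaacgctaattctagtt
Gm28438 (first 60 bases, chr1:24613060-24613119, minus strand): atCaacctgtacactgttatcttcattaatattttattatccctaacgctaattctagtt

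Genes can also share bases with each other. mt-Atp8 and mt-Atp6, the 2 mitochondrial subunits of the ATP synthase, overlap by 43 bases on the same strand, given in capitals. A read in this stretch lies in both genes.
mt-Atp8 (last 80 bases, chrM:7890-7969, plus strand): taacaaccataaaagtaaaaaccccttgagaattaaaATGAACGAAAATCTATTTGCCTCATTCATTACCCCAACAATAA
mt-Atp6 (first 80 bases, chrM:7927-8006, plus strand): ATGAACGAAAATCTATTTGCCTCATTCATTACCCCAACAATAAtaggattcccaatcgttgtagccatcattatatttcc

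The coding length of 3 of the 13 mRNA genes, mt-Co3, mt-Nd4 and mt-Cytb, is 1 base over a multiple of 3. Each of them ends in a lone T, in capitals, which the poly(A) tail is known to complete to a stop codon.
mt-Nd4 (last 40 bases, chrM:11505-11544, plus strand): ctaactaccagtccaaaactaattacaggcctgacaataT
mt-Cytb (last 40 bases, chrM:15249-15288, plus strand): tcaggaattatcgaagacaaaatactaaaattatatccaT

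Over the kept cells the 37 genes took 3.04% of gene counts, or 6569168 counts. mRNAs held 78.0% of these counts, rRNAs 22% and tRNAs 0.0121%. mt-Co1, a catalytic subunit of complex IV, was the most counted gene with 36.5%, followed by mt-Cytb of complex III with 24.8%, the large-subunit rRNA mt-Rnr2 with 19.0% and mt-Nd1 of complex I with 11.4%. These 4 genes together held 91.8% of mitochondrial counts. The small-subunit rRNA mt-Rnr1 held 3.0%, although both rRNAs stand in equal number in the ribosome. How fully Smart-seq2 captured each kind of RNA was not tested. Counts, also per kilobase, are therefore not amounts of transcript.

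The order per length was similar. mt-Co1 had 1551801 counts per kilobase of gene and mt-Cytb had 1424834. mt-Rnr2 and mt-Nd1 followed with 789637 and 785357. mt-Rnr1 had 206396, and mt-Nd5, mt-Nd4, mt-Nd2 and mt-Nd6 of complex I had between 91374 and 21536. Every other mRNA gene had 7207 or less.

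These low genes were, with 1 exception, the genes with near-complete nuclear copies among the annotated transcripts. A base was called shared when it lay in a run of 75 bases found unchanged in a transcript from elsewhere in the annotation. Over 90% of bases were shared in 5 mRNA genes, which were mt-Co2 (99.6%), mt-Atp6 (99.6%), mt-Co3 (99.9%), mt-Nd3 (98.3%) and mt-Nd4l (99%). Their levels ran from 152 to 7207 counts per kilobase. The other 8 mRNA genes had at most 71.5% of bases shared, and 7 of them had at least 21536 counts per kilobase. The exception was mt-Atp8, with 201 counts per kilobase and no shared run, which lies between copied genes and overlaps mt-Atp6. Only annotated transcripts were searched. The stretch of chromosome 1 between Gm10925, which ends at 24614651, and Gm28661, which starts at 24614885, was therefore not covered. Whether it holds a copy of mt-Atp8 was not tested.

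The 7 copies on chromosome 1 held 35829 counts, against 13613 on the 5 members with over 90% of bases shared. Gm28437 alone had 13450 counts, more than the 5650 on mt-Co3 itself. Both together are far under the 751587 counts of mt-Nd1. The length of the reads and the treatment of reads that align in more than 1 place were not given in the sources used here, and 0.0498% of all counts were recorded as not unique. What the copies did to the counts was not tested. The levels of mt-Co2, mt-Atp8, mt-Atp6, mt-Co3, mt-Nd3 and mt-Nd4l are therefore uncertain. The copies took a similar share in every group, with medians of 0.537% to 0.550% of the mitochondrial counts of a cell.

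**Figure D1:**
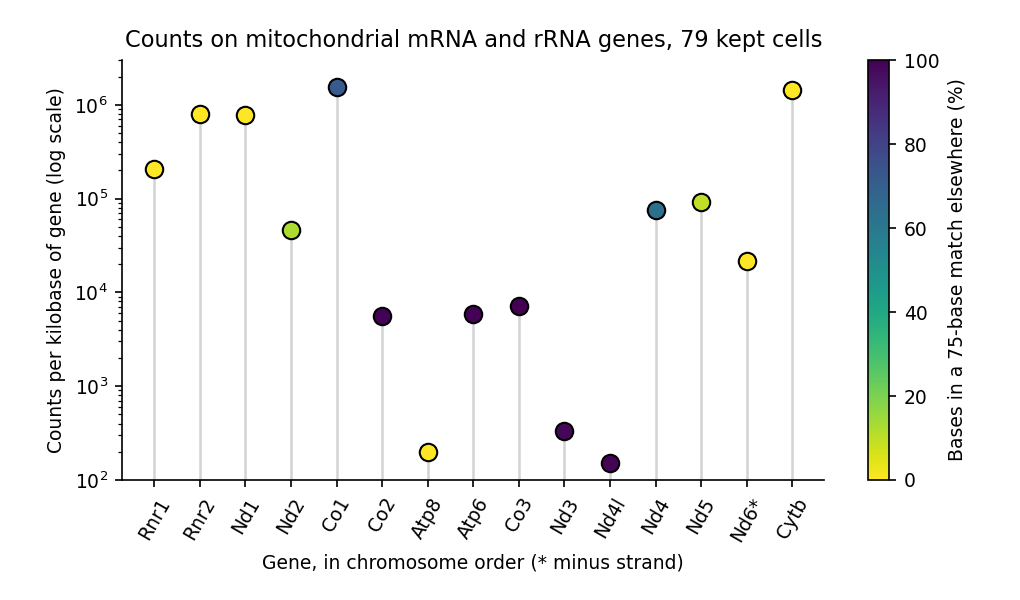
Counts per kilobase of gene, on a log scale, for the 13 mRNA and 2 rRNA genes in chromosome order, summed over the 79 kept cells. Colour gives the percentage of bases in a 75-base match elsewhere in the annotation, and the 5 darkest points, mt-Co2, mt-Atp6, mt-Co3, mt-Nd3 and mt-Nd4l, are at 7207 or less.

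mt-Co1 and mt-Nd4 are partly copied, with 71.5% and 63.6% of bases shared. The longest stretch of mt-Co1 without a match is 142 bases, from base 462 to base 603 of the gene. Its start is given here as sequence that identifies the most counted member.
mt-Co1 (bases 462 to 581, chrM:5789-5908, plus strand): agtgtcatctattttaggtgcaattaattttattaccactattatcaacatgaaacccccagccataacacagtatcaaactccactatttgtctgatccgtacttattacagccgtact

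Transfer RNAs were nearly absent from the counts. Of 22 tRNA genes 12 had no count, which allows each up to 3.69 counts in 6569168 (upper end of the exact two-sided 95% Poisson interval), and 8 had 1 to 9 counts. Most of the 794 tRNA counts lay on mt-Tp, the proline tRNA, with 675, and on mt-Tq, the glutamine tRNA, with 90. mt-Ta, mt-Tv and mt-Tt had 9, 8 and 4. Both leading tRNAs are annotated on the minus strand, and their anticodons are in capitals.
mt-Tp (67 bases, chrM:15356-15422): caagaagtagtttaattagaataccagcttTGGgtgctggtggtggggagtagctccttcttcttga
mt-Tq (71 bases, chrM:3772-3842): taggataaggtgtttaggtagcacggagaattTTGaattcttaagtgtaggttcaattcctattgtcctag

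The 9 genes annotated on the minus strand, mt-Nd6 among them, held 0.182% of mitochondrial counts. mt-Nd6 is the only mRNA on that strand and had 11177 counts. Smart-seq2 libraries do not mark the strand, so a read from a plus-strand precursor that runs through mt-Nd6 or mt-Tp cannot be told from one of the gene itself.

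The share of mitochondrial counts was close in all 4 groups. Its median over kept cells was 3.16% in small cells of 2i (range 0.721% to 6.13%), 2.97% in 2i ungated cells (1.74% to 22%), 2.63% in N2B27 small cells (1.71% to 5.0%) and 2.95% in N2B27 ungated cells (2.04% to 3.83%). The ranges overlapped between every pair of groups. On the log2 scale the median of small cells stood 0.16 below that of ungated cells in N2B27 (-0.16) and 0.09 above it in 2i. Between media the difference was -0.26 in small cells and -0.01 in ungated cells.

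The direction in 2i depended on the summary, since the means over cells gave -0.20 in place of 0.09. A single ungated cell with 22% entered that mean. Within a group, the share also differed between index rows of the plate, with medians of 3.83% and 2.93% over 7 and 6 small cells in 2i. This gap between rows was larger than the gap between gates in 2i. In N2B27 the rows were closer, at 2.67% and 2.54% in small and 2.95% and 2.89% in ungated cells.

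**Figure D2:**
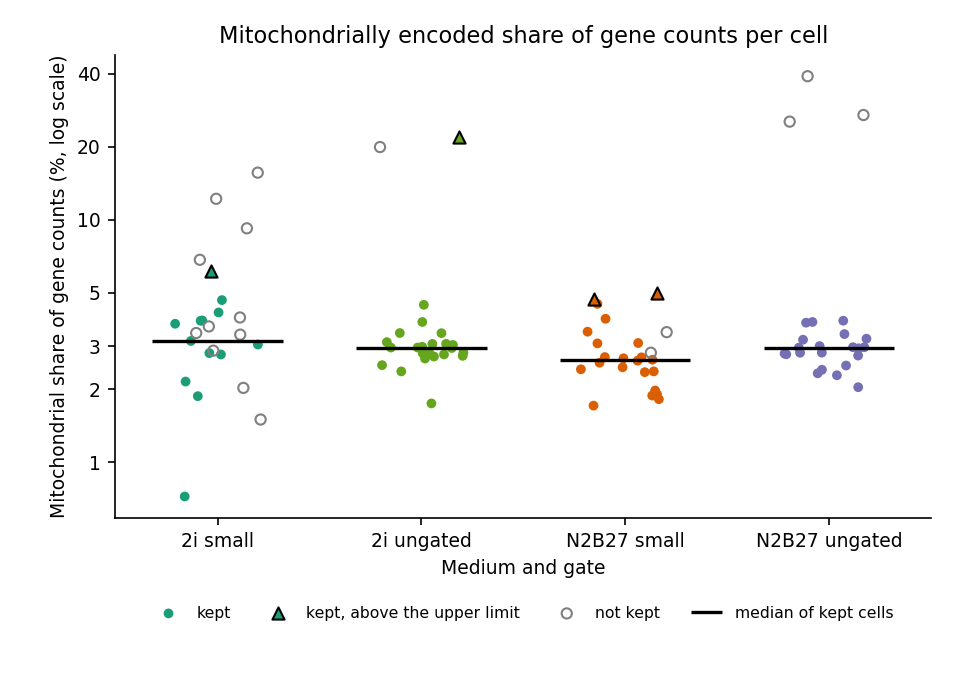
Share of gene counts on the 37 mitochondrial genes in each of 96 cells, by medium and gate, on a log scale. Filled points are kept cells, triangles are kept cells above an upper limit of 5.16% (2i) or 4.67% (N2B27), open points are cells not kept, and the medians, drawn as lines, lie between 2.63% and 3.16%.

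The ERCC spike-ins, synthetic RNAs added to each cell in a fixed amount, give a scale that does not depend on the other genes. Small cells had fewer mitochondrial counts per ERCC count in both media. In N2B27 the median was 1.30 (range 0.340 to 3.30) in small cells and 2.39 (1.5 to 5.02) in ungated cells, a log2 difference of -0.87. In 2i it was 1.28 (0.0407 to 61.5) and 2.31 (0.441 to 4.25), a difference of -0.85. The ranges overlapped, and the 2i small cell at 61.5 stood far from the rest: it had 15712 genes detected and 0.0673% of its counts on ERCC. With means in place of medians the 2i difference was 1.25 with this cell and -1.16 without it.

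Nuclear counts were lower per ERCC count as well. Their median was 37.3 in N2B27 small and 83.5 in N2B27 ungated cells, and 29.8 and 73.7 in 2i. Across the cells of a group both measures rose together, with Spearman's rho between 0.80 and 0.91 over 13 to 23 cells, although they share the ERCC count as denominator. The share of counts on ERCC was correspondingly higher in small cells, at 2.55% against 1.14% in N2B27 and 3.05% against 1.29% in 2i. Fewer RNA molecules per cell and a loss of cell RNA that spares the ERCC RNA cannot be told apart here.

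The mitochondrial share itself followed the ERCC share weakly. Spearman's rho between them was -0.27 in 2i small (n = 13), 0.25 in 2i ungated (n = 23), -0.15 in N2B27 small (n = 22) and -0.07 in N2B27 ungated cells (n = 21). Pearson's r of the log2 values was 0.87 in 2i ungated cells and 0.16 once the cell at 22% was left out. Index rows differed on this scale too: the medians of mitochondrial counts per ERCC count were 1.72 and 0.485 in the 2 rows of 2i small cells and 1.41 and 0.924 in those of N2B27 small cells.

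The transcripts did not move as a block. The level of a gene in a group is given from here on as the mean over cells of its CPM, so that the members do not set their own scale, and a difference between groups is the log2 ratio of these means after adding 1. At least 10 CPM, averaged over groups, were reached by 12 members: both rRNAs and mt-Nd1, mt-Nd2, mt-Co1, mt-Co2, mt-Atp6, mt-Co3, mt-Nd4, mt-Nd5, mt-Nd6 and mt-Cytb. The 3 remaining mRNAs and all tRNAs were under that level. With 1 sample a group, a 2-fold difference stands in for a call.

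In N2B27 mt-Nd6 was the only member past 2-fold between small and ungated cells, and it was higher in small cells, where 12.2% of 8449 genes were higher past 2-fold and 14.3% lower. mt-Nd6, a complex I gene, had a mean of 93.4 and 41.0 CPM. Its single cells ran from 9.20 to 328 (median 65.5) in small cells and from 4.25 to 80.1 (median 38.9) in ungated cells, so the groups overlapped. The log2 difference was 1.17. Scaled to ERCC counts it was -0.23.

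Relative to nuclear counts mt-Co1 and mt-Cytb differed in opposite directions between the gates, each by less than 2-fold, except that mt-Co1 was at -1.05 in N2B27 with means of log2 values. In N2B27 mt-Co1 was at 8135 in small and 12458 CPM in ungated cells (log2 -0.61). mt-Cytb was at 9840 and 6600 (0.58). The same held in 2i, where mt-Co1 was at 10080 and 13006 (-0.37) and mt-Cytb at 10633 and 6459 (0.72). Scaled to ERCC counts, both were lower in N2B27 small cells, mt-Co1 past 2-fold (-1.28) and mt-Cytb not (-0.57). In 2i small cells mt-Co1 (1.17) and mt-Cytb (1.34) were both higher on this scale. The 2i values rest on the small cell at 61.5 mitochondrial counts per ERCC count. Without it mt-Co1 was at -1.30 and mt-Cytb at -1.08 in 2i on this scale. The higher level of mt-Cytb in small cells thus holds relative to nuclear counts. Per ERCC count it was lower in N2B27, and its sign in 2i depended on that 1 cell.

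The other complex I genes did not move together. In N2B27 mt-Nd2 was at 0.68, mt-Nd5 at 0.14, mt-Nd1 at -0.10 and mt-Nd4 at -0.20 between small and ungated cells. In 2i mt-Nd6 was at 0.54, mt-Nd5 at 0.48, mt-Nd4 at 0.24, mt-Nd1 at 0.09 and mt-Nd2 at -0.18, the last at 0.66 without the kept cells above the upper limit. The uncertain mt-Co2, mt-Atp6 and mt-Co3 lay between -0.06 and 0.37 in N2B27 and between 0.22 and 0.60 in 2i, and mt-Rnr1 was at -0.08 and -0.30, the latter at 0.19 without the kept cells above the upper limit.

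In 2i mt-Rnr2 was the only member past 2-fold, lower in small cells with a log2 difference of -1.36, where 13.7% of genes were higher and 22% lower. This rested on the ungated cell with 22% mitochondrial counts, in which mt-Rnr2 reached 244314 CPM. Without the 4 kept cells above the upper limit on the mitochondrial share the difference was 0.28, and no member was past 2-fold. The median over the 12 members was 0.23 in 2i, against -0.20 over all genes, and 0.05 in N2B27, against -0.05.

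Between media, no member was past 2-fold in small cells, where 19.6% of genes were higher in N2B27 and 12.9% lower. mt-Nd4 (-0.93) and mt-Rnr1 (-0.88) came closest, and without the 4 kept cells above the upper limit mt-Nd4 was at -1.03. In ungated cells mt-Co2 was higher in N2B27 (log2 1.01, from 9.74 to 20.6 CPM), and mt-Rnr1 (-1.10) and mt-Rnr2 (-1.34) were lower, where 7.52% of genes were higher and 8.63% lower. Without the 4 cells the values were 0.95 for mt-Co2, -0.48 for mt-Rnr1 and 0.48 for mt-Rnr2, so none was past 2-fold and that of mt-Rnr2 changed sign. The counts of mt-Co2 are among those that a nuclear copy makes uncertain. The median over members was -0.21 in small and -0.14 in ungated cells, against 0.12 and 0.06 over all genes. mt-Nd1 was lower in N2B27 under both gates, at -0.56 and -0.37, but per ERCC count it was at 0.16 in small cells once the cell at 61.5 was left out, and plate or lane cannot be told apart from the medium.

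The mixture of transcripts within the mitochondrial counts varied more widely among small cells. The 75 kept cells at or under the upper limit on the mitochondrial share are described here, which are 12 small and 22 ungated cells in 2i and 20 small and 21 ungated cells in N2B27. In ungated cells mt-Co1 took a narrow share of mitochondrial counts, from 34.9% to 50.6% in 2i (median 43.7%) and from 31.5% to 51.9% in N2B27 (39.8%). In small cells it ran from 3.36% to 50.1% in 2i (29.7%) and from 2.73% to 46.8% in N2B27 (33.3%). The upper ends were close, and among these 75 cells only small cells reached low values. The ungated cells left out, 2 of 2i and 3 of N2B27 above the upper limit, had mt-Co1 shares of 0.141% to 3.81%.

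mt-Cytb mirrored it. Its share ran from 14.4% to 26.6% in 2i ungated and from 14.3% to 29.7% in N2B27 ungated cells. In small cells it ran from 16.3% to 68.0% in 2i and from 16.1% to 75.9% in N2B27. mt-Rnr2 ran from 6.13% to 42.0% in N2B27 small and from 12.3% to 25.8% in N2B27 ungated cells, whereas the medians differed little (20.1% and 18.9%). mt-Nd1 had medians of 13.6% in both 2i groups and of 9.78% and 9.58% in N2B27 small and ungated cells.

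**Figure D3:**
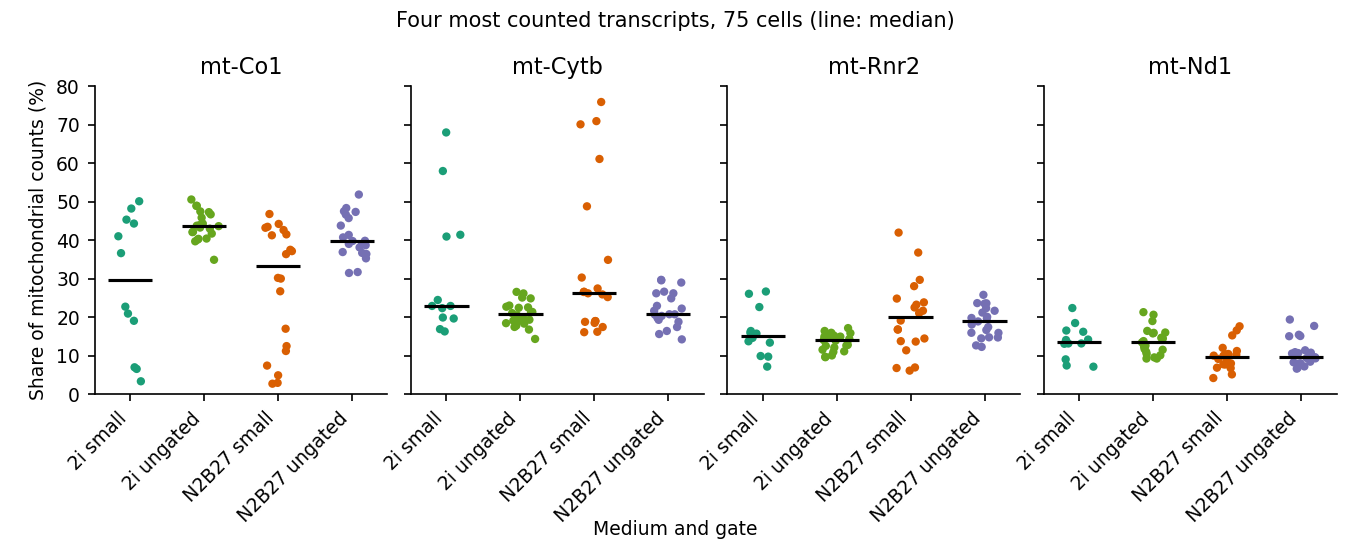
Share of mitochondrial counts on mt-Co1, mt-Cytb, mt-Rnr2 and mt-Nd1 in 75 cells, by medium and gate, with lines at the medians. In mt-Co1 all ungated cells lie at 31.5% or more, whereas small cells reach down to 2.73%, and in mt-Cytb small cells reach up to 75.9%.

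Counts on mt-Cytb exceeded those on mt-Co1 in 5 of 12 2i small cells (41.7%, exact Clopper-Pearson interval 15.2% to 72.3%) and in 8 of 20 N2B27 small cells (40%, 19.1% to 63.9%). This was seen in 0 of 22 2i ungated and 0 of 21 N2B27 ungated cells, which allows shares of up to 15.4% and 16.1%. The intervals cover the number of cells only. The median ratio of mt-Co1 to mt-Cytb counts was 1.33 in small and 2.10 in ungated cells of 2i, and 1.58 and 1.78 in N2B27. The lowest ratio was 0.0359, in an N2B27 small cell, and the lowest in any ungated cell was 1.09. With all kept cells the counts were 5 of 13, 1 of 23, 10 of 22 and 0 of 21.

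In small cells the ratio moved with the spike-in share and with the number of genes detected. In small cells Spearman's rho between the ratio and the ERCC share was -0.83 in 2i (n = 12) and -0.68 in N2B27 (n = 20). It was 0.31 in 2i ungated (n = 22) and -0.38 in N2B27 ungated cells (n = 21), whose ERCC share reached 2.42% at most. mt-Co1 relative to nuclear counts fell with the ERCC share in small cells (rho -0.86 and -0.61) and mt-Cytb rose (0.48 and 0.68). Between the ratio and genes detected, rho was 0.72 in 2i small and 0.78 in N2B27 small cells. It was -0.51 in 2i ungated and 0.05 in N2B27 ungated cells. Which of these measures the ratio follows was not tested.

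Small cells within the range of the ungated cells looked much like them. Of the small cells with an ERCC share of at most 2.42%, 0 of 5 in 2i and 1 of 10 in N2B27 had more mt-Cytb than mt-Co1, and the median ratios were 2.28 and 1.64. Above 2.42%, it was 5 of 7 in 2i and 7 of 10 in N2B27, with median ratios of 0.460 and 0.339. The limit of 2.42% is the highest ERCC share among the ungated cells described here, so by construction none of them lay above it. The ungated cells left out, 2 of 2i and 3 of N2B27, had ERCC shares of 19.1% to 55.8%. With them, mt-Cytb exceeded mt-Co1 in 1 of 24 2i ungated and 0 of 24 N2B27 ungated cells. The part of low RNA content and of a loss of cell RNA in the ratio was not tested.

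**Figure D4:**
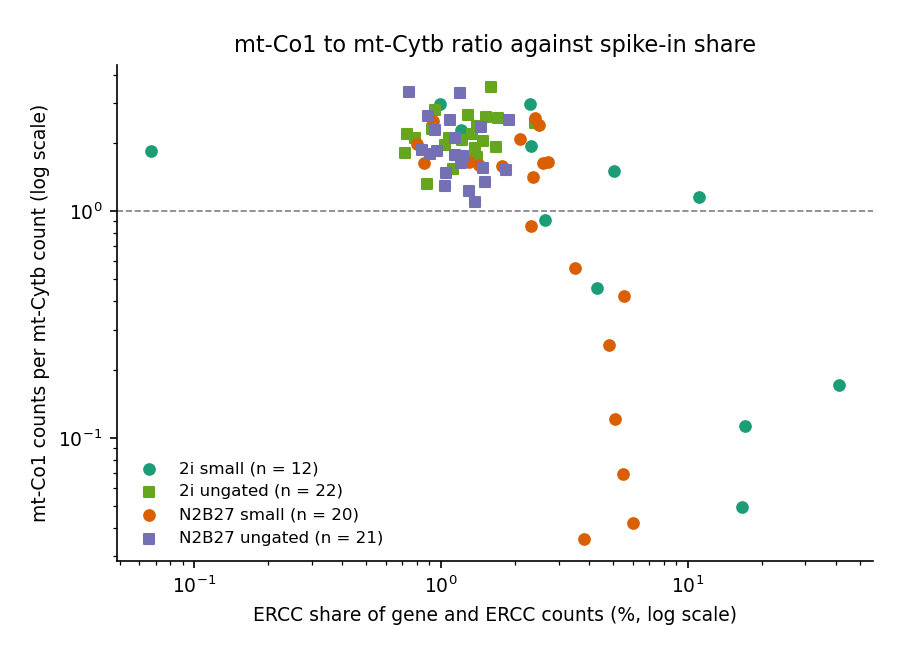
Ratio of mt-Co1 to mt-Cytb counts against the ERCC share of gene and ERCC counts in 75 cells, both on log scales, with circles for small and squares for ungated cells. All cells under a ratio of 1 (dashed line) are small cells, and 12 of these 13 have an ERCC share above 2.42%.

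By the cyclone phase assignment, which scores marker genes of the cell cycle, 5 of 6 small cells in 2i and 4 of 6 in N2B27 called G1 had more mt-Cytb than mt-Co1. Among those called S it was 0 of 5 and 3 of 11, and among those called G2/M 0 of 1 and 1 of 3. In the small cells called G1, mt-Co1 had a median of 13% of mitochondrial counts in 2i and 11.9% in N2B27, against 41.0% and 37.2% in those called S. The same cells had a median ERCC share of 10.5% in 2i and 4.93% in N2B27, against 2.32% and 2.36% in those called S. The 2 N2B27 ungated cells called G1 had 44.0% mt-Co1 and an ERCC share of 1.68%. Phase and ERCC share therefore moved together in small cells, and which of them the ratio follows was not tested. Both index rows held such cells: 2 of 7 and 3 of 5 in 2i, and 3 of 11 and 5 of 9 in N2B27.

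The spread between cells was larger in small than in ungated cells for nearly every member. The SD of the log2 level was larger in small cells for 12 of 12 members in 2i, with a median SD of 1.02 against 0.45. In N2B27 it was larger for 11 of 12, at 1.00 against 0.46, with mt-Atp6 as the exception. For mt-Co1 it was 1.42 against 0.27 in 2i and 1.54 against 0.38 in N2B27. This was not particular to the members. Among all 8449 genes the SD was larger in small cells for 78.3% in 2i and 69.2% in N2B27. Among the 706 nuclear genes at the level of the 8 most abundant members it was larger for 99.9% and 95.5%, with median SDs in small cells of 2.35 and 1.80, above those of the members.

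Across cells, members rose and fell together only in part. Of 66 pairs among the 12 members, 34 had a Spearman's rho above 0 in all 4 groups, and none had one below 0 in all 4. Pairs of other genes were not counted in this way, so no background stands beside these counts. The rRNAs mt-Rnr1 and mt-Rnr2, neighbours on the precursor, had rho from 0.52 to 0.69. mt-Rnr2 with mt-Co1 had 0.40 to 0.71, and mt-Nd5 with its overlapping neighbour mt-Nd6 had 0.32 to 0.77. mt-Co1 with mt-Cytb had 0.39 in 2i ungated and 0.15 in N2B27 ungated cells, and -0.33 and -0.40 in the small cells. These values are descriptions over 12 to 22 cells of a sample, and the levels of all pairs share the nuclear counts as denominator. As shares of mitochondrial counts, where a high share of 1 gene lowers the others, mt-Rnr1 with mt-Rnr2 had 0.60 and 0.64 in small and ungated cells of 2i and 0.17 and 0.15 in N2B27. On that scale mt-Rnr2 with mt-Co1 had 0.12 and 0.52 in 2i and 0.03 and -0.25 in N2B27. mt-Nd5 with mt-Nd6 had 0.18 to 0.36 over the 4 groups. mt-Co1 with mt-Cytb was negative in all 4 groups, at -0.90 and -0.52 in 2i and -0.68 and -0.61 in N2B27.

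Most cells with a high mitochondrial share differed from the others in composition. A share above the upper limit of the plate was found in 12 of 96 cells, of which 5 small and 2 ungated cells were from 2i and 2 small and 3 ungated cells from N2B27, and 4 passed the limits on counts and genes. In 8 of the 12, rRNA made up over 60% of mitochondrial counts, a line drawn after the values were seen, with a median of 91.7% (range 65.0% to 99.7%). Almost all of it was mt-Rnr2, with 64.8% to 93.8% of mitochondrial counts. mt-Co1 had a median of 2.43% of mitochondrial counts in these cells, against 40.8% in the 75 kept cells at or under the limit.

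These 8 cells had 10521 to 637314 counts on genes, 3456 to 5386 genes detected and an ERCC share of 19.1% to 97.7%. The 2i small cells among them with 93.6% and 97.7% ERCC had only 49591 and 10521 counts on genes. Whether these wells held a cell was not tested. The mitochondrial share of the 8 was 9.21% to 39.1%. The 3 from N2B27 ungated were at 25.4%, 27% and 39.1%, and the 2 from 2i ungated at 19.9% and 22%. The only one of the 8 to be kept was the 2i ungated cell with 22%. Their median was 0.290 mitochondrial counts per ERCC count, against 1.99 in the 75 cells and 0.00408 in the 9 other cells that were not kept. Nuclear counts per ERCC count had medians of 1.25, 68.0 and 0.178 in the same order. By these medians the 8 cells lay below the 75 cells and above the 9 others on both measures, but the ranges overlapped. Mitochondrial counts per ERCC count ran from 0.00219 to 1.15 in the 8, 0.0407 to 61.5 in the 75 and 0.000953 to 0.309 in the 9. Nuclear counts per ERCC count ran from 0.0216 to 3.10, 1.41 to 1423 and 0.0253 to 10.6.

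The other 4 cells above the limit, 2 in 2i small and 2 in N2B27 small, had less rRNA. They had 4.72% to 6.83% mitochondrial counts, of which rRNA made up 10.7% to 30.5%, within the range of the 75 cells (6.45% to 46.0%). In 3 of them the ERCC share was 2.71% to 3.05%, and mitochondrial counts per ERCC count were 1.69 to 1.94. The fourth, a 2i small cell that was not kept, had 43.1% ERCC, 3892 genes detected and 0.0901 mitochondrial counts per ERCC count, within the ranges of the 8 cells. An rRNA share over 60% was found in 1 cell under the limit, at 79.8%, which was not kept.

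**Figure D5:**
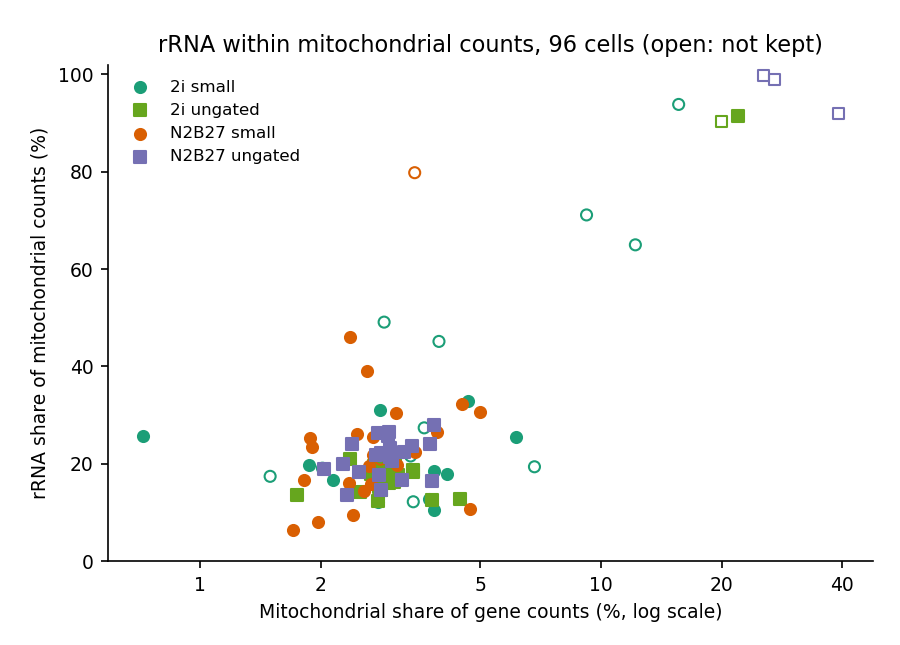
rRNA as a percentage of mitochondrial counts against the mitochondrial share of gene counts (log scale) in 96 cells, with circles for small and squares for ungated cells and open symbols for cells not kept. The 8 cells at 9.21% or more all lie at 65.0% rRNA or more, and the 75 kept cells at or under the limits lie at 46.0% or less.

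The nuclear genes that serve the mitochondrial genome were taken from a list of 42, of which 41 matched by symbol and 35 reached 10 CPM. Between small and ungated cells, 2 were higher past 2-fold and 8 lower in N2B27, where 12.2% and 14.3% of all genes were. In 2i 3 were higher and 7 lower, beside 13.7% and 22% of all genes. Between media, 6 were higher in N2B27 and 5 lower in small cells, beside 19.6% and 12.9%, and 5 were higher and 2 lower in ungated cells, beside 7.52% and 8.63%. Nothing is read from these counts about the list. Their medians were -0.03, -0.09, 0.02 and 0.11 in the same order. By role, 1 of 7 genes of transcription was higher and 1 lower in N2B27 small cells. Of 10 genes of replication and nucleotide supply 1 was higher and 4 lower, of 12 genes of RNA processing 3 were lower, and none of 6 genes of RNA stability and decay was past 2-fold.

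Tfam, which packs mitochondrial DNA and starts its transcription, was at 101 and 92.3 CPM in N2B27 small and ungated cells (log2 0.12) and at 80.3 and 61 in 2i (0.39). Polrmt, the mitochondrial RNA polymerase, was at 20.4 and 40.6 in N2B27 (-0.96) and at 20.2 and 25.9 in 2i (-0.35). Neither was past 2-fold, but without the 4 kept cells above the upper limit Polrmt was at -1.09 in N2B27. The largest difference of the transcription factors in N2B27 was that of Mterf1a, a factor named for the termination of transcription (2.68, 8.68 against 0.51 CPM). It rested on 390 counts in 7 small cells and 23 counts in 4 ungated cells.

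Lrpprc and Slirp form the complex that protects mitochondrial mRNAs from decay. In 2i both were higher in small than in ungated cells, Lrpprc at 144 against 33.9 CPM (log2 2.05) and Slirp at 116 against 32.9 (1.79). Of the 6 genes of their role, 2 were higher and 1 lower past 2-fold in 2i. The lower one was Supv3l1, at 13.6 against 75.8 CPM (-2.40), with counts in 2 small cells. In N2B27 Lrpprc and Slirp were at 30.8 and 23.7 (0.37) and at 79.1 and 42.0 (0.90), under 2-fold, and without the 4 cells Lrpprc was at -0.17. The largest differences of the other roles in N2B27 were those of Polg2, the accessory subunit of the DNA polymerase (-1.88, 4.32 against 18.6 CPM), Ptcd1, which takes part in RNA processing (-1.57, 13.2 against 41.0), and Supv3l1, a helicase of the RNA-degrading complex (-0.92, 36.7 against 70.2). At such levels a mean over 13 to 23 cells can rest on few of them.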

How the data were processed

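Smart-seq2 libraries of 96 mouse ES cells in 4 samples were analysed. Per the submitters' processing notes and the methods, the authors used Trim Galore 0.4.4 for trimming, GSNAP for alignment against GRCm38 and HTSeq with Ensembl gene models for counting, and the deposited tables hold raw counts per gene and cell, without normalization or molecular identifiers. Intervals and floors therefore cover counting error only. The unit of the counts was checked on the files, where all values are whole numbers. Columns were matched to samples through the list of sequencing runs. Rows that name no gene (27.6% of all counts, ambiguous reads at 6.77% among them) stayed out of totals.

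Symbols, positions and transcripts were taken from GENCODE M21, a later release on the same build. The members and lists were chosen with earlier results of these data known. The named genes are all mRNA and rRNA members, the 5 tRNA genes with the most counts, Tfam, Polrmt, Lrpprc, Slirp and, of each role of nuclear factors, the gene with the largest difference between small and ungated N2B27 cells.

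Cells were kept at no more than 3 median absolute deviations below the plate median of log10 counts on genes and of genes detected (307960 counts and 4435 genes in 2i, 1250614 and 5316 in N2B27). The upper limit on the mitochondrial share, set likewise, served only to describe cells. No doublet caller was run. Whether each well held a single cell, such as that of the 2i small cell with 15712 genes detected, was not tested. Gene levels were counts per 1000000 counts on nuclear genes (CPM), with a pseudocount of 1 and a minimum mean of 10 over group means. No test was run, since each group is 1 sample, so the DESeq2 test that the authors name was not repeated. Nuclear copies were found as exact matches of 75 bases on either strand among all other transcripts. The fold computation was tested on simulated data. Python 3.11.15, numpy 2.4.6, scipy 1.17.1, pandas 2.3.3, matplotlib 3.10.9, R 4.3.3, scran 1.30.0 and DESeq2 1.42.0 (size factors, over 1033 genes) were used. Alternatives changed the filter on cells, the denominator, the summary over cells, the scaling, the pseudocount and the minimum level.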

Additional observations from a re-analysis of the deposited data

How the results depend on the processing

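No paired analysis was possible because each group is 1 sample and no test was run. Differences are log2 values in the order N2B27 small against ungated, 2i small against ungated, small N2B27 against 2i and ungated N2B27 against 2i, and the cause of each change was not tested. With no filter on cells, the differences in mitochondrial share were -0.16, 0.24, -0.40 and 0.0011, those per ERCC count -1.01 and -4.03, and 3, 1, 2 and 1 members were past 2-fold, with mt-Rnr1 at 0.65 and mt-Rnr2 at 1.33 in the last comparison. With an upper limit on the mitochondrial share as well, the gate differences were -0.18 and 0.069, those per ERCC count -1.02 and -1.31, and 1, 0, 1 and 0 members were past 2-fold, with mt-Rnr2 at 0.28 in 2i and 0.48 in ungated cells. Fixed limits of 100000 counts and 4000 genes gave -0.26 and 0.0014 between media, -0.94 per ERCC count in N2B27, 3 members in N2B27 and 1.45 for mt-Rnr1 and 1.93 for mt-Rnr2 in ungated cells. Without cells over 25% ERCC the share differed by 0.22 in 2i and -0.39 in small cells, per ERCC count by -0.69 in 2i, no member was past 2-fold in 2i or between ungated cells, and mt-Rnr2 was at 0.43 and 0.48 there.

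Pooled counts gave -0.033, 0.11, -0.21 and -0.060 for the share, -1.20 and -1.88 per ERCC count, 0 members past 2-fold in each comparison and 0.0015 for mt-Rnr2 in 2i. Means over cells gave -0.044, -0.20, -0.21 and -0.37, and -0.97 and 1.25 per ERCC count. The denominator of nuclear counts gave -0.17 in N2B27 and -0.27 in small cells. That of all aligned reads gave -0.22, 0.069, -0.29 and -0.0030. The 13 mRNA genes alone gave -0.11, 0.11, -0.31 and -0.089, and -1.06 and -0.89 per ERCC count.

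ERCC size factors moved the median over all genes to -0.85, 0.75, -1.50 and 0.11, from -0.05, -0.20, 0.12 and 0.06. They put 2, 10, 11 and 1 members past 2-fold, with mt-Nd6 at -0.23 in N2B27 and mt-Rnr2 at 1.46 in 2i and 0.53 in ungated cells. Without the 2i small cell with the most counts per ERCC count, an alternative chosen after seeing the data, they put 2, 5, 1 and 1 past it, with mt-Nd6 at -0.23 and mt-Rnr2 at 0.53 in the same comparisons and the median over all genes in 2i at -1.32. Means over cells per ERCC count then gave -1.16 in 2i. DESeq2 size factors put 1, 10, 8 and 8 past it, with factors as low as 0.0108 in 2i ungated and 0.0275 in 2i small cells. Means of log2 values put 1, 0, 1 and 1 past it. In N2B27 this was mt-Co1 (-1.05) and no longer mt-Nd6 (0.77), with mt-Rnr2 at 0.19 in ungated cells. Counts of members thus depend on the scaling, whereas fewer mitochondrial counts per ERCC count in N2B27 small cells kept their sign in all alternatives run. Of the alternative values for the comparisons, 67 moved by more than their interval, or by more than 1.5 times for counts of members, and 40 did not. These intervals cover counting error and not the spread between cells. A share difference in N2B27 of -0.158 in place of -0.164 already counted as moved, so the split does not measure robustness.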
